A study of Mus musculus with 10 samples.

Results

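Complement is a cascade of plasma and tissue proteins in which C1q, made of A, B and C chains, starts the classical pathway, C4 carries that signal to the central component C3, and factor B and factor D form the amplification loop known as the alternative pathway. Cleavage of C3 and of C5 releases the anaphylatoxins C3a and C5a, small peptides that act on myeloid and other cells through the receptors C3aR1 and C5aR1. Outside the liver, C1q chains and both receptors are typical products of macrophages, fibroblasts make several of the other components, and factor D, also called adipsin, is abundant in fat.

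The 9 genes described here, *C1qa*, *C1qb*, *C1qc*, *C3*, *C4b*, *Cfb*, *Cfd*, *C3ar1* and *C5ar1*, were taken by name as the C1q chains, the central and alternative pathway components and the anaphylatoxin receptors, out of 24452 named genes in the count table. Bulk RNA-Seq was done on full-thickness back skin, without tumor, from WT mice (5 libraries) and from knock-in mice with the genotype TTP delta ARE (here Zfp36ΔARE, 5 libraries), all C57BL/6. Mice were 7 weeks old when the experiment began, and both groups had received DMBA, the tumor initiator, at 400 nmol and then TPA, the inflammatory promoter, at 10 nmol in repeated applications over 20 weeks. In Zfp36ΔARE mice an AU-rich instability element is removed from the endogenous gene of TTP, an RNA-binding protein that promotes decay of inflammatory mRNAs, so the change is present in every tissue and not in a chosen cell type, and untreated skin was not analysed here. Since RNA came from whole skin, fewer cells of a type and less RNA per cell cannot be told apart.

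Libraries held 19595024 to 36419553 counts in named genes. The targeted gene *Zfp36* was 2.52-fold higher in Zfp36ΔARE skin (log2 fold change 1.33 ± 0.12 SE, n = 5 per group), with no overlap between groups. Counts of Y-linked transcripts were 3349 to 4262 in Zfp36ΔARE replicates 2 to 5 and at most 1 in the other 6 libraries, so genotype and this difference cannot be told apart outside Zfp36ΔARE replicate 1. WT replicates 1 and 3 had the lowest hair shaft keratin scores (mean log2(CPM + 1) of the marker list), 5.33 and 2.495, against 8.07 to 8.499 in the other WT libraries and 9.19 to 10.7 in Zfp36ΔARE, so that the groups did not overlap. Zfp36ΔARE replicate 2 stood apart in liver transcripts, with *Alb* at 404 normalized counts against at most 106 elsewhere.

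TTP recognizes AUUUA motifs in 3′-UTRs, written ATTTA in DNA letters, and for that reason the annotated 3′-UTRs of the 9 genes were read from GENCODE on mm10 (GRCm38). Only *C1qc*, *C3ar1* and *C5ar1*, 3 of 9, held this pentamer, against 68.8% of 14389 tested coding genes. The 3′-UTRs of most components were short, 43 bases in *C3* and 69 in *Cfd*, whereas the median over tested coding genes was 1128. *C3ar1*, at 2685 bases, held 4 pentamers, *C5ar1*, at 1295, held 3, and *C1qc*, at 239, held 1. The longer TATTTAT was in the receptors alone, 1 in *C3ar1* and 2 overlapping in *C5ar1*, against 29.4% of tested coding genes. The sites below show the only pentamer of *C1qc* and the heptamers of both receptors, on the minus strand, 5′ to 3′, with ATTTA in capitals; overlapping copies run together in *C5ar1*.
C1qc, chr4:136889861-136889885: tcctgtggccATTTAtcaatacctt
C3ar1, chr6:122847306-122847330: gtgatacattATTTAttcagttgtc
C5ar1, chr7:16247204-16247228: aaaagcacgtATTTATTTAttttgt
A match is a description of the letters, and binding was not measured.

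All 9 genes passed the filter on low counts, and each was lower in Zfp36ΔARE skin at an adjusted p under 0.05, which 19.1% of the 15543 genes tested were. Of these, 7 also fell by more than 2-fold, against 6.64% of genes tested, and 8 had all Zfp36ΔARE libraries below all WT libraries, against 11.9%. Their median log2 fold change was -1.35, beside 0.0076 over all genes tested. *C3* fell most, 3.17-fold, and *Cfb* least, 1.71-fold. In the comparison of 5 WT libraries with Zfp36ΔARE replicate 1, which all lack Y-linked counts, the 9 log2 fold changes were -1.63 to -0.86, with 8 at an unadjusted p under 0.05 but none passing after adjustment (edgeR, adjusted p = 0.295 to 0.340); 0 of 16373 genes passed in that fit, where 2572 had an unadjusted p under 0.05.

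**Figure D1:**
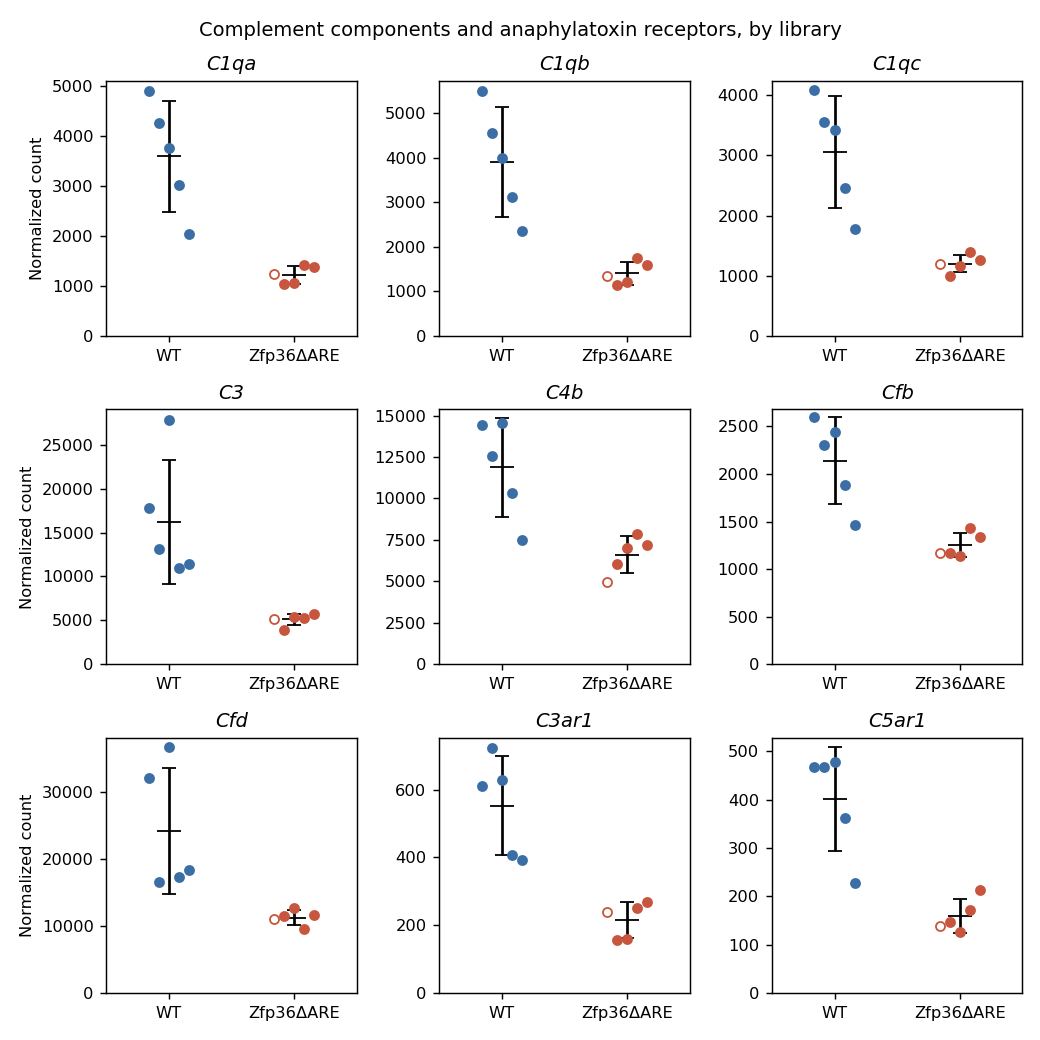
Normalized counts (linear axis from 0) of the 9 genes in 5 WT (blue) and 5 Zfp36ΔARE (red) libraries; each point is a library, bars are mean ± SD, and the open circle is Zfp36ΔARE replicate 1, which lacks Y-linked counts. Groups are separate for every gene but *C4b*, where the lowest WT library, at 7502, lies below the highest Zfp36ΔARE library, at 7831.

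The C1q chains lie side by side on chromosome 4, on the minus strand, within 18675 bases (mm10 136880129 to 136898803), each with 3 exons. *C1qa* normalized counts were 4907, 4255, 3766, 3014 and 2047 in WT replicates 1 to 5 and 1239, 1033, 1063, 1423 and 1387 in the Zfp36ΔARE replicates. The lowest WT library thus stood above the highest Zfp36ΔARE library, and the fall was 2.93-fold (log2 fold change -1.55 ± 0.21 SE; edgeR, adjusted p = 0.0040). For *C1qb* they were 5505, 4565, 3991, 3126 and 2349 in WT and 1350.3, 1154, 1201, 1756 and 1590.3 in Zfp36ΔARE, 2.77-fold lower with no overlap (log2 fold change -1.47 ± 0.22; edgeR, adjusted p = 0.0045). For *C1qc* they were 4079, 3553, 3414, 2451 and 1781 against 1187, 1001, 1160, 1402 and 1262, 2.54-fold lower with no overlap (log2 fold change -1.35 ± 0.20; edgeR, adjusted p = 0.0045). The chains followed each other closely: after removing group means, log2(CPM + 1) of each pair correlated at Pearson's r of 0.967 to 0.986 over the 10 libraries, which share their depth scaling. This was not particular to the chains, since *Cfb* correlated with them at 0.956 to 0.968 in the same way. Per length, the ratio of *C1qb* to *C1qa* was 1.06 to 1.26 in all 10 libraries. The ratio of *C1qc* to *C1qa* was 0.835 to 0.931 in WT and 0.934 to 1.12 in Zfp36ΔARE, so that the groups were adjacent without overlapping, a difference that was not tested.

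*C3*, on chromosome 17 (57203970 to 57228136, minus strand), encodes the protein on which all activation pathways converge. Its normalized counts were 17738, 13094, 27797, 10959 and 11371 in WT and 5219.9, 3969.8, 5364, 5234 and 5768 in Zfp36ΔARE. Every Zfp36ΔARE library lay below the WT range, and WT replicate 3 was far above the other WT libraries; the log2 fold change was -1.66 ± 0.25 (edgeR, adjusted p = 0.0045). Without WT replicates 1 and 3 it was -1.21 (edgeR, adjusted p = 0.0029).

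*C4b*, which encodes the C4 of the classical pathway, also lies on chromosome 17 (34728380 to 34743882, minus strand). It held 14432, 12563, 14563, 10321 and 7502 normalized counts in WT and 4944, 6049, 7017, 7831 and 7208 in Zfp36ΔARE. WT replicate 5 fell within the Zfp36ΔARE range, the only overlap among the 9 genes. The change was 1.80-fold (log2 fold change -0.85 ± 0.19; edgeR, adjusted p = 0.011), and without WT replicates 1 and 3 it did not pass (log2 fold change -0.61; edgeR, adjusted p = 0.051). *C4a*, a near-identical neighbouring copy named here for that reason, averaged 53.8 normalized counts in WT and 55.7 in Zfp36ΔARE, and because the handling of reads that match both copies is not given, the split between them is uncertain.

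*Cfb*, the serine protease of the alternative pathway convertase, lies on chromosome 17 too (34856374 to 34862518, minus strand). It held 2603, 2309, 2437, 1881 and 1469 normalized counts in WT and 1175, 1169, 1141, 1430.0 and 1337 in Zfp36ΔARE. The lowest WT library and the highest Zfp36ΔARE library were close but did not overlap, and the fall was under 2-fold (log2 fold change -0.78 ± 0.14; edgeR, adjusted p = 0.0070).

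*Cfd*, the protease that cleaves factor B, lies on chromosome 10 (79890853 to 79892655, plus strand). Its normalized counts were 32100.5, 16568, 36764, 17329 and 18324 in WT and 11009, 11430.4, 12651, 9498 and 11688 in Zfp36ΔARE. WT replicates 1 and 3, the libraries with the least hair shaft signal, stood far above the other WT libraries, which were still above all Zfp36ΔARE libraries. The log2 fold change was -1.11 ± 0.23 (2.15-fold; edgeR, adjusted p = 0.0091), and without those 2 libraries it was -0.63 (edgeR, adjusted p = 0.0072), under 2-fold. Leaving out WT replicate 1 or WT replicate 3 alone also took it under 2-fold, at -0.98 and -0.91, and it still passed. Within groups *Cfd* correlated with *C3* at r = 0.839 but with the C1q chains at only 0.334 to 0.450.

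The anaphylatoxin receptors were the least abundant of the 9 genes. *C3ar1*, on chromosome 6 (122847138 to 122856161, minus strand), encodes the C3a receptor and held 611, 725, 629.6, 409 and 392 normalized counts in WT and 239, 155, 159, 249.7 and 269 in Zfp36ΔARE. *C5ar1*, on chromosome 7 (16246743 to 16259540, minus strand), encodes the C5a receptor and held 468, 468, 478, 363 and 228 in WT and 139, 148, 125, 172 and 214 in Zfp36ΔARE. Neither overlapped between groups, although WT replicate 5 and Zfp36ΔARE replicate 5 were close for *C5ar1*. The log2 fold changes were -1.37 ± 0.22 for *C3ar1* (edgeR, adjusted p = 0.0052) and -1.33 ± 0.22 for *C5ar1* (edgeR, adjusted p = 0.0053). Their ratio per length was 0.673 to 1.03 in WT and 0.627 to 1.03 in Zfp36ΔARE, overlapping throughout.

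Levels of different genes were compared only per length, as FPKM. *Cfd* stood highest in WT skin at 979 ± 384 (SD, n = 5) and in Zfp36ΔARE skin at 455 ± 46.6, above every other member in every library. In WT skin the next were *C1qb* at 138 ± 43.3, *C1qa* at 125 ± 38.4, *C3* at 118 ± 51.2, *C1qc* at 109 ± 32.9 and *C4b* at 82.5 ± 20.8, and each overlapped with the gene after it in this order. *Cfb* followed at 29.2 ± 6.28, apart from both sides, and *C5ar1* at 5.85 ± 1.57 and *C3ar1* at 4.82 ± 1.27 overlapped. In Zfp36ΔARE skin the order of the middle genes changed, with *C1qb* at 49.8 ± 9.08, *C4b* at 45.9 ± 7.85, *C1qc* at 42.8 ± 5.21, *C1qa* at 42.6 ± 6.22 and *C3* at 37.3 ± 4.93, but these neighbours overlapped as well. The ratio of *C3* to *C4b* per length was 1.09 to 2.003 in WT and 0.689 to 1.11 in Zfp36ΔARE, with a slight overlap.

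**Figure D2:**
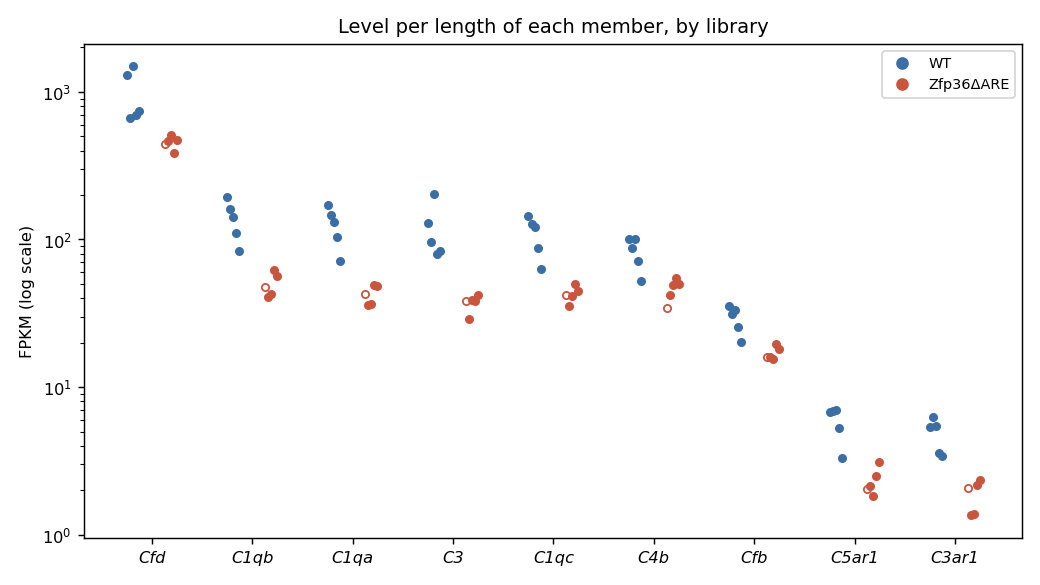
Level per length (FPKM, log axis) of each gene in every library, ordered by the WT mean, WT in blue and Zfp36ΔARE in red with Zfp36ΔARE replicate 1 open. *Cfd* lies above all others in both groups, *C5ar1* and *C3ar1* lie lowest, and the 5 genes from *C1qb* to *C4b* overlap.

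The rest of the pathway was described from a list of 49 other complement genes, of which 33 had enough counts to test. Of these 18 were lower (19.1% of all genes tested), 3 were higher (15.3%) and 12 did not pass, and 11 lower and 2 higher ones also exceeded 2-fold (6.64% and 1.67%). Their median log2 fold change was -0.62. Of 7 receptors and adhesion molecules that bind complement proteins or their fragments, 6 were lower. *Itgam* and *Itgb2*, the subunits of complement receptor 3, had log2 fold changes of -1.52 ± 0.26 and -1.48 ± 0.28, and *C5ar2*, the other C5a receptor, fell by 1.37 on the log2 scale. *Itgax*, the partner subunit of complement receptor 4, was at -1.46 and *Cd93* at -1.17, while *Cr1l* fell only 1.18-fold.

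*Cfp*, properdin, which stabilises the alternative pathway convertase, was 2.66-fold lower (log2 fold change -1.41 ± 0.19; edgeR, adjusted p = 0.0040). *Fcna*, a ficolin that recognises microbial sugars, was 3.32-fold lower (log2 fold change -1.73 ± 0.36; edgeR, adjusted p = 0.0091). Its groups overlapped, at 268 to 1111 normalized counts in WT and 143 to 270 in Zfp36ΔARE. Of 5 fluid-phase regulators tested 3 were lower, 1 was higher and 1 did not pass, and of 6 membrane regulators 3 were lower, 1 was higher and 2 did not pass. *Vtn*, vitronectin, fell by 1.39 on the log2 scale, *Cd55*, which dissociates convertases on cell surfaces, by 1.02, and *Cd59b*, which blocks the membrane attack complex, by 1.18. *C1s1* and *C1ra*, the proteases that C1q activates, were at -0.82 and -0.68, *Serping1*, their inhibitor, was at -0.70, *Colec12* was at -0.64 and *Cd59a* at -0.53, all passing but under 2-fold.

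The terminal pathway, which forms the membrane pore, had no gene that was lower at an adjusted p under 0.05 among the 4 tested of 7 listed. *Hc*, the gene of C5, named after its value was seen, had too few counts to test. It held 7.76 to 32.9 normalized counts in WT and 1.10 to 7.91 in Zfp36ΔARE. *C6* had a log2 fold change of -0.17 ± 0.28 (edgeR, adjusted p = 0.650), and *Clu*, a chaperone that inhibits the pore, was at 0.51 ± 0.28 (edgeR, adjusted p = 0.173). *C7* had the largest increase among the complement genes tested, 2.90 ± 0.84 (edgeR, adjusted p = 0.027), but it was 24.0 normalized counts in Zfp36ΔARE replicate 1 and 810 to 1476 in replicates 2 to 5, against 30.1 to 231 in WT. Only the libraries with Y-linked counts were high, and among libraries without them the *C7* log2 fold change was -2.27 (edgeR, adjusted p = 0.343). *Cpn2*, a subunit of the carboxypeptidase that inactivates anaphylatoxins, was higher at 1.13 ± 0.36 (edgeR, adjusted p = 0.034), and *Susd4*, a membrane regulator named after its value was seen, at 0.67 ± 0.22 (edgeR, adjusted p = 0.039). *C7* did not pass with limma-voom (adjusted p = 0.284). With 1 library left out, the adjusted p reached 0.056 for *C7* and 0.081 for *Cpn2* (edgeR), so neither passed in every such fit. None of the 3 increases, in *C7*, *Cpn2* and *Susd4*, passed with the replicate number as a block, although the numbers do not pair the samples. That fit also had 13 lower genes in place of 18. *Serping1*, *Cd59a*, *Itgax* and *Cr1l* did not pass in it (edgeR, adjusted p = 0.053, 0.059, 0.069 and 0.121).

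**Figure D3:**
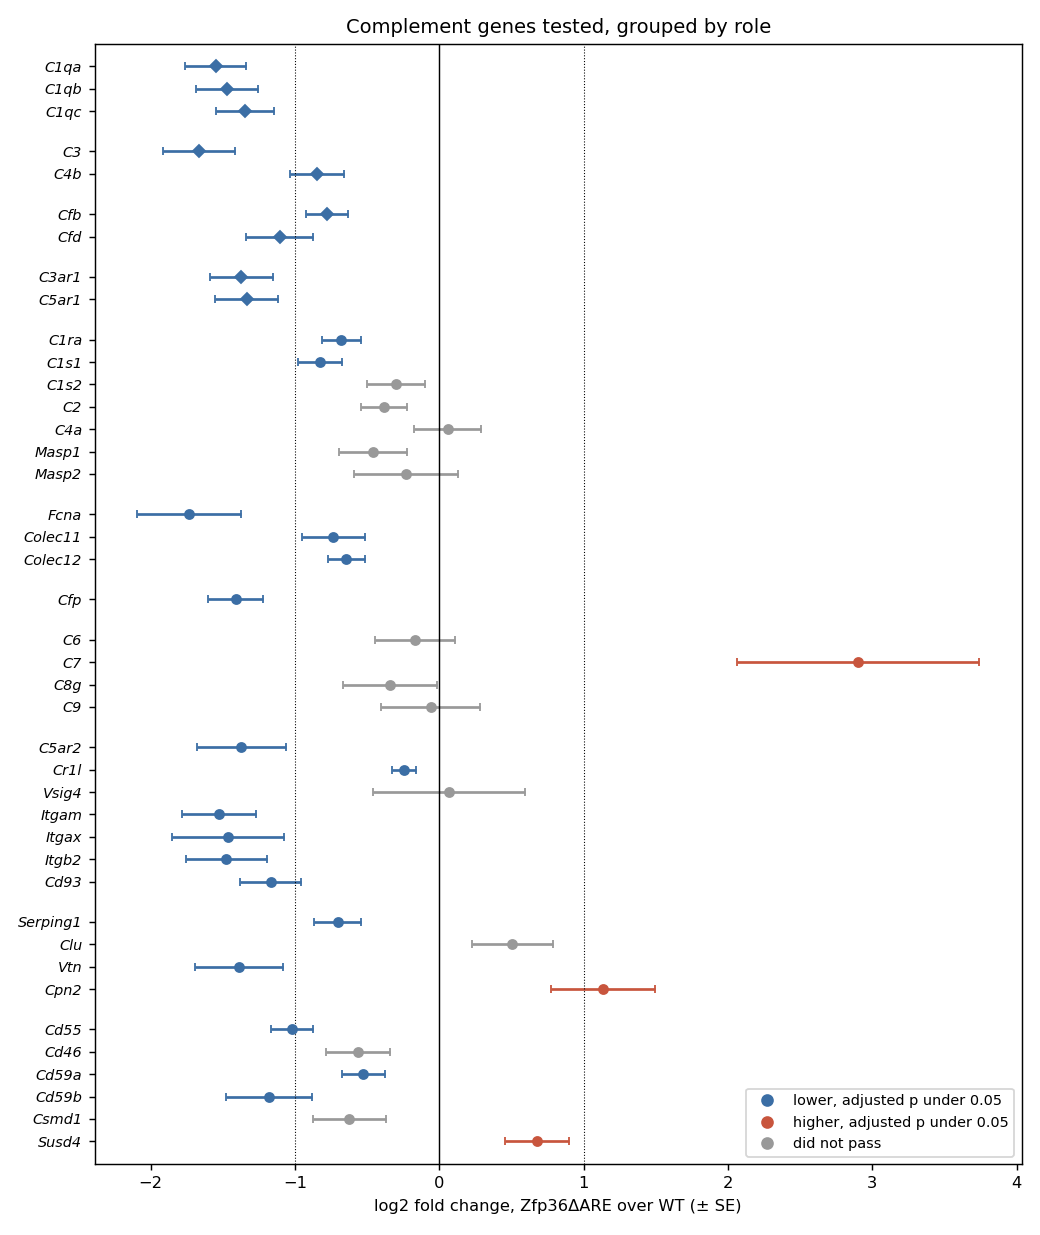
Log2 fold change, Zfp36ΔARE over WT, ± SE of the 9 genes (diamonds) and 32 of the 33 other complement genes tested (circles), grouped by role; blue is lower and red higher at an adjusted p under 0.05, grey did not pass, and dotted lines mark 2-fold. All diamonds lie left of 0, and *C7*, *Cpn2* and *Susd4* are the red circles.

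Markers of the cells that usually express these genes moved with them. Of 12 macrophage markers 11 were lower (*Csf1r* -1.50, *Cd163* -1.32 and *Mrc1* -1.40 on the log2 scale), and the score was 5.20 to 6.03 in WT and 4.25 to 4.92 in Zfp36ΔARE. Of 10 fibroblast markers 7 were lower (score 8.20 to 8.94 against 7.46 to 8.22), though *Col1a1* and *Col1a2* did not pass. Of 10 adipocyte markers 8 were lower (score 6.79 to 7.73 against 6.13 to 6.33), with *Adipoq* at -1.28 and *Plin1* at -1.31, while *Fabp4*, at -0.28, did not pass. Mast cell markers had 7 of 8 lower and 1 higher. Lower were also 7 of 8 endothelial markers and 8 of 10 skeletal muscle markers. Fewer were lower among basal keratinocyte markers, 2 of 6, neutrophil markers tested, 1 of 4, and T cell markers, 0 of 9. Over all genes tested the share that was lower was 19.1%. From endothelial to T cell markers, none of these lists had a marker that was higher at an adjusted p under 0.05. Hair shaft markers went the other way: all 9 had every Zfp36ΔARE library above every WT library, as did 1745 of the 15543 genes tested. Their median log2 fold change was 2.30, although only 1 of them passed the test, and their score was 2.495 to 8.499 in WT and 9.19 to 10.7 in Zfp36ΔARE. The part of these shifts in the complement result was not tested.

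To set each gene against such markers, the mean log2(CPM + 1) of a marker list was subtracted in the same library. *C5ar1* and *C3ar1* then differed between groups by -0.024 and -0.11 relative to macrophage markers, and *C1qc*, *C1qb* and *C1qa* by -0.13, -0.26 and -0.33, with overlapping groups for all 5. For *C1qa* and *C1qb* the overlap came from Zfp36ΔARE replicate 1 alone, at 1.12 and 1.237 against lowest WT values of 1.08 and 1.235. Relative to fibroblast markers *C4b* differed by -0.13 and *Cfb* by -0.053, again overlapping, and *Cfd* relative to adipocyte markers differed by -0.11, which was -0.0058 without WT replicate 1. *C3* was the only gene without overlap with the lists used here. Its value relative to fibroblast markers was 0.270 to 1.08 in WT and -0.747 to 0.159 in Zfp36ΔARE, a mean difference of -0.89 without overlap. No other list was subtracted from *C3*. The mean fibroblast score differed between groups by -0.69, but the macrophage and mast cell scores by -1.15 and -1.27. The separation of *C3* may therefore depend on the list chosen. Relative to fibroblast markers, Zfp36ΔARE replicate 1, at 0.159, was the nearest to the WT libraries. Its fibroblast score, 7.46, was the lowest of all libraries. Its *C3* count itself, 5219.9, lay inside the range of the other Zfp36ΔARE libraries, 3969.8 to 5768. These differences are descriptions without a test, and other cells can express the same genes.

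**Figure D4:**
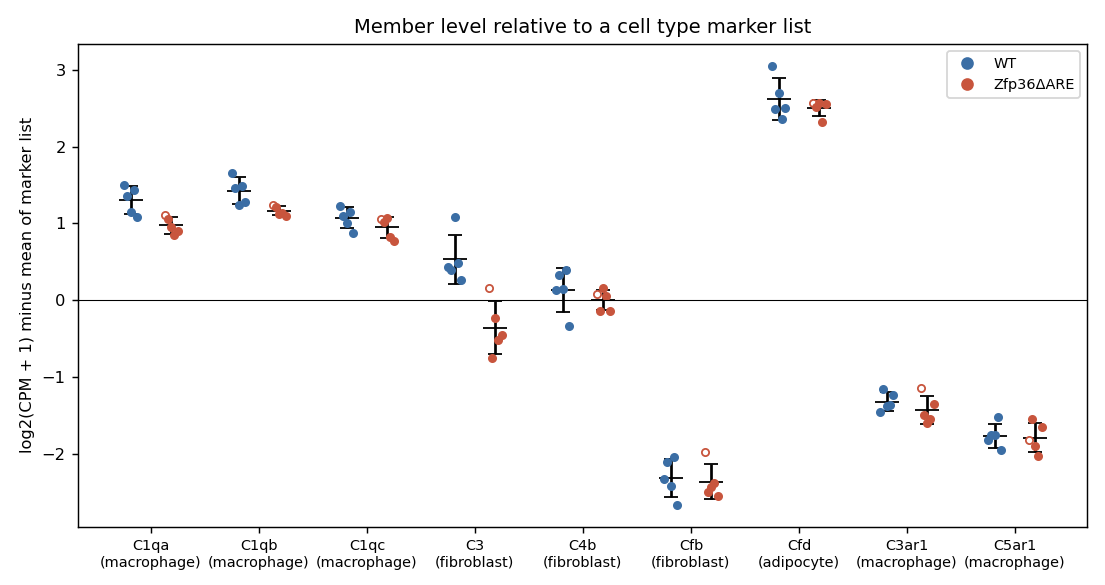
Log2(CPM + 1) of each gene minus the mean of the marker list named under it, by library, with mean ± SD (WT blue, Zfp36ΔARE red, Zfp36ΔARE replicate 1 open). Groups overlap for 8 of the 9 genes, in *C1qa* and *C1qb* through Zfp36ΔARE replicate 1 alone. For *C3* every Zfp36ΔARE library, at most 0.159, lies below every WT library.

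Among 13682 other genes with a mean of at least 50 normalized counts, those whose log2(CPM + 1) over the 10 libraries was most like each member were listed by Pearson's r, which here includes the difference between groups and the depth scaling the libraries share. *Pld4*, *Ms4a6c* and *Cfp* were nearest to *C1qa* (0.996 to 0.992), *Pld4*, *Ms4a6c* and *Ctla2b* to *C1qb* (0.994 to 0.993), and *Ap2a2*, *Pld4* and *Mrc1* to *C1qc* (0.995 to 0.993). *C3* was most like *Cpa3*, *Cdon* and *Esr1* (0.993 to 0.991), the first a mast cell protease, and *Cfd* like *Pnpla2*, *Mef2c* and *Apobec2* (0.991 to 0.988). WT replicates 1 and 3, highest for *Cfd*, had the highest adipocyte scores (7.18 and 7.73) and also the highest skeletal muscle scores (10.7 and 11.6). *C3ar1* was nearest to *Csf1r*, the receptor of macrophage growth factor, then *Plaur* and *Rab3il1* (0.987 to 0.985). *C5ar1* was nearest to *AI607873*, *Dab2* and *Slfn5* (0.993 to 0.986), *C4b* to *Pf4*, *Fli1* and *Rassf2* (0.980 to 0.975), and *Cfb* to *Scamp5*, *Itgb1* and *Ap2a2* (0.992 to 0.986).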

How the data were processed

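Per the labels and methods, the authors removed reads with a mean score under 20, aligned the rest to mm10 with STAR 2.5.2b and counted fragments with featureCounts (Subread 1.5.0-p1). The deposited values are raw counts. Strand and multi-mapping settings are not given in the sources used here. The deposited gene length, another value column, gave FPKM. Rows without a gene name, 2 of 24454 (7.38e-05% of counts), were left out.

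Counts were scaled by TMM, filtered with filterByExpr and tested by genotype with the quasi-likelihood test of edgeR 4.0.16 in R 4.3.3, with Benjamini-Hochberg adjustment over 15543 genes, after the script was tested on simulated data. Normalized counts are scaled to 26680948 counts. Alternatives were DESeq2 1.42.0, limma-voom (limma 3.58.1), other scalings and filters, a replicate block and leaving out libraries. Members and lists were chosen with earlier results of these data known. Genes named were all members, the 2 other complement genes of each role with the most counts and every one past 2-fold, the first markers of each list, the 3 most alike per member, *Zfp36* and sex-linked transcripts; 1 of these is not reported here. The labels do not say that each library is a separate mouse, so p-values measure the spread between libraries.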

Additional observations from a re-analysis of the deposited data

How the results depend on the processing

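All 9 members kept their direction under every alternative, and 9 passed under each except when WT replicates 1 and 3 were left out (8) and among libraries without Y-linked counts (0 passed, 0 past 2-fold, where the lone Zfp36ΔARE library was assumed to vary like WT; edgeR gave 8 at an unadjusted p under 0.05). With single libraries left out, 6 to 7 members passed 2-fold and 9 passed. The replicate block changed no member call. Other complement genes that passed went from 21 to 13 with the replicate block (0 higher), to 13 without WT replicates 1 and 3 (1 higher) and to 0 (0 lower, 0 higher) among libraries without Y-linked counts, and with 1 library left out to 15 to 23, of which 0 to 3 were higher. Same-numbered WT and Zfp36ΔARE libraries correlated at -0.192 to 0.0851 in their deviations, and 0 WT libraries were closest to their own number, so the numbers do not pair the samples. *C7* reversed to -2.27 among libraries without Y-linked counts and *C6*, which was -0.37 to 0.0075 with 1 library left out, to 0.0075 without WT replicate 2. *Cfd* relative to adipocyte markers was -0.18 to -0.0058 with 1 library left out. The cause was not tested. Depth did not limit the members, whose lowest library value was 125 normalized counts.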
